A study of Rattus norvegicus with 6 samples.

Results

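Enzyme families that convert alcohols, aldehydes and ketones into one another were followed in the liver of weanling rats whose mothers ate different diets. The members were every gene whose annotated symbol begins with Adh (alcohol dehydrogenases), Aldh (aldehyde dehydrogenases) or Akr (aldo-keto reductases) followed by a digit. Aldh1a1, Aldh1l1, Aldh4a1, Aldh7a1 and Akr1d1, known for retinoid, folate, amino acid and bile acid metabolism, were not among them. The members still include other genes of retinoid, folate and amino acid metabolism, such as Aldh1a2, Aldh1l2 and Aldh18a1. This gave 32 of the 14217 genes named on the array: 5 Adh, 13 Aldh and 14 Akr genes. A gene with several probe sets, the groups of short probes that each give 1 value, was read from the brightest of them, by its mean over the 6 arrays.

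The samples were livers of 3-week-old Sprague-Dawley pups, 3 from dams on standard chow (control) and 3 from dams on a high fat diet. Each liver was hybridised to 1 Affymetrix rat expression array. The pups' sex, their litters and their own diet after birth are not given in the sources used here, and without litters, p-values measure the spread between these livers only. What the mother ate is the only labelled difference, and transcript levels of her offspring at weaning are the readout.

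Alcohol dehydrogenases oxidise ethanol, retinol and other alcohols to aldehydes or ketones with NAD as cofactor. Aldehyde dehydrogenases then oxidise aldehydes to carboxylic acids, which removes reactive products of lipid peroxidation. These reactions also complete steps of retinoic acid, GABA and carnitine metabolism. Aldo-keto reductases run in the other direction, reducing aldehydes and ketones, including sugars and steroids, with NADPH. The liver is a main site of all 3 families.

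Levels are log2 signals, so a difference of 1 is a factor of 2 between groups. Probe sets differ in how strongly they bind, so levels are compared between arrays for 1 gene and not between genes. Of the 32 members, 27 passed the brightness limit of 5.83, the level below which the dimmest 40% of probe sets lay, and were tested with limma among 10372 genes. The limit fell in a gap of the family: the dimmest member tested, Aldh1a2, had a mean of 6.80 and the brightest one left out, Akr1c3, a mean of 5.79. Fewer cells of a type and less RNA per cell cannot be told apart in whole liver.

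The tissue label matched the hepatocyte markers. All 8 on the array, such as albumin and transthyretin, were bright in both groups, with a summed log2 level of 17.90 to 17.92 in controls and 17.83 to 17.90 in high fat pups. High fat replicate 1 stood apart in exocrine pancreas markers. Its 14 pancreas markers summed to 15.95, against 10.94 to 12.05 in the other 5 arrays. The 10 endothelial markers summed to 14.35 to 14.60 in controls and 13.56 to 13.97 in high fat pups, without overlap. All 10 had a lower mean, 7 at an unadjusted p under 0.05 (limma; 70%, beside 14.1% of all genes). Pecam1 (-0.088), Vwf (-0.40) and Emcn (-0.36) had overlapping groups. The 11 handling and heat shock genes summed to 13.50 to 14.19 in controls and 14.40 to 15.65 in high fat pups, also without overlap. The single genes went both ways, 5 higher and 6 lower, with a median log2 change of -0.16. Of these genes 5 had an unadjusted p under 0.05 (45.5%, beside 14.1% of all genes). Hspa1a, Hsph1 and Dnajb1 were higher, and Ier3 (-0.65) and Klf4 (-0.90) lower. High fat replicate 3 alone had a low Xist, at 4.45 against at least 12.46. It also had a high Y-linked Eif2s3y, at 11.14 against at most 3.99, although that gene's mean lay below the brightness limit. Another Y-linked gene, Uty, did not follow, at 10.25 in high fat replicate 3 and 10.64 to 11.20 in the other arrays. Control replicate 3 had the largest excess of 3' over 5' signal in the control probe sets of actin and Gapdh, 3.09 against 1.96 to 2.49, a sign of RNA wear. The part of these features in the results below was not tested, and the values without each array are given where they move a result.

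No member passed an adjusted p of 0.05 (limma, Benjamini-Hochberg over all genes). The smallest adjusted p was 0.185, for Aldh18a1, and 0.0386% of all genes passed. At an unadjusted p under 0.05 there were 7 members, 25.9% of those tested, beside 14.1% of all genes. Of these, 5 lay higher in high fat pups (Aldh18a1, Aldh1a2, Adh7, Adh4 and Aldh1b1), where 6.56% of all genes did. The other 2, Akr1c19 and Aldh1a3, lay lower, where 7.51% of all genes did. High fat and control arrays did not overlap in 11 members (40.7%, beside 20.8% of all genes). In 7 of these the high fat arrays were the higher ones (beside 9.24% of all genes) and in 4 the lower ones (beside 11.5%).

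In all, 20 of 27 members had a higher mean in high fat pups and 7 a lower one, with a median log2 change of 0.25, beside 46.9% of all genes higher, 53.1% lower and a median of -0.021. Measured from the control mean, the members' median was 0.21, 0.18 and 0.16 in high fat replicates 1 to 3, and -0.034, 0.099 and -0.11 in the controls. Every high fat array thus lay above every control, by a margin smaller than the spread among controls. The median change was 0.14 without control replicate 1 or without control replicate 3, 0.16 without high fat replicate 2 or 3, and 0.35 without control replicate 2. Without control replicate 2 the count at an unadjusted p under 0.05 was 11, beside 13.2% of all genes.

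**Figure D1:**
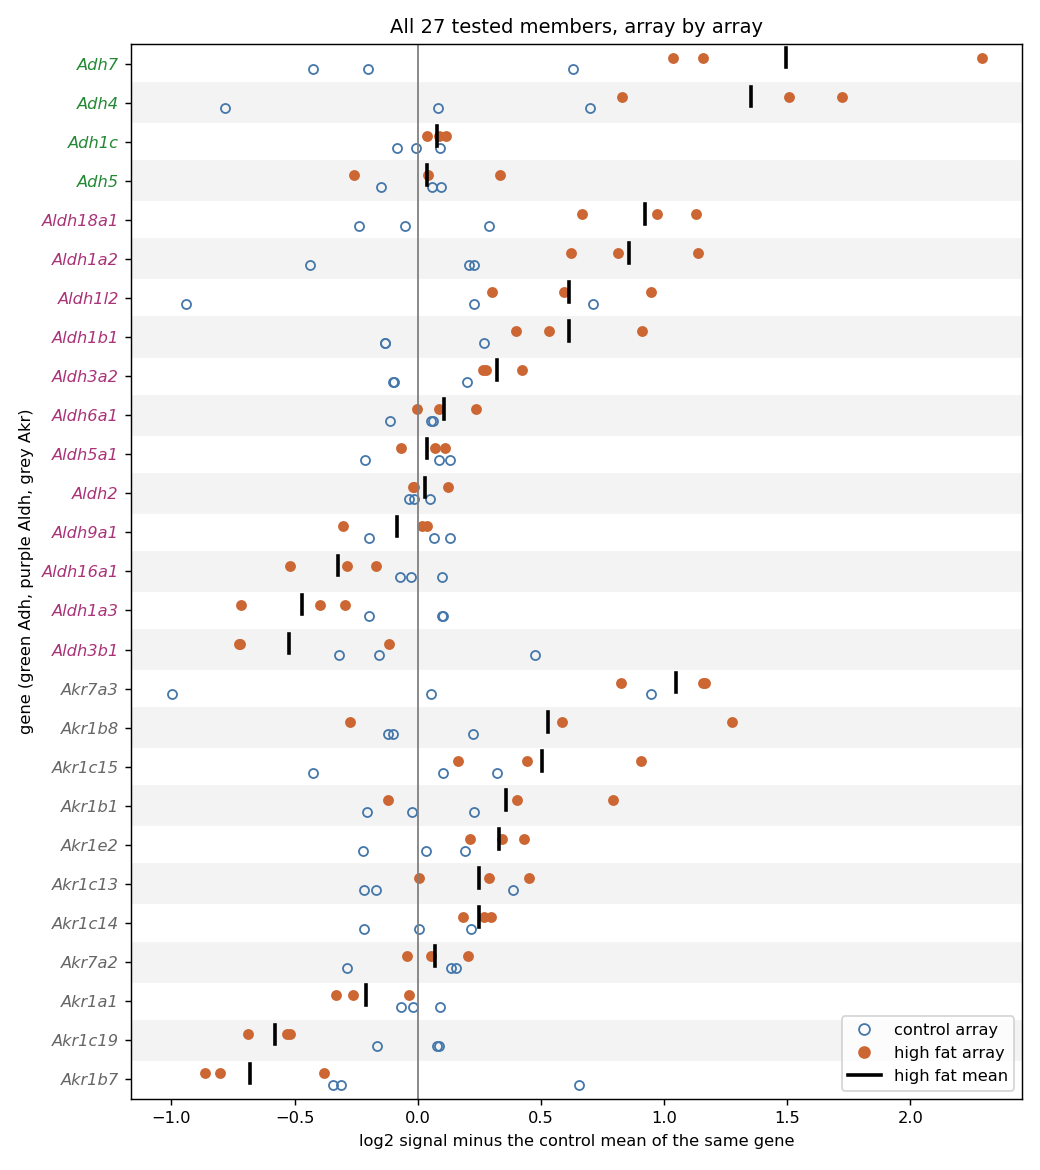
Log2 signal of each tested member in each array, minus the control mean of that gene (x axis), with 1 row per gene; open circles are control arrays, filled circles high fat arrays and bars the high fat mean. Adh7 and Adh4 reach farthest to the right, at 1.5 and 1.35, and Akr1b7 and Akr1c19 farthest to the left, at -0.68 and -0.58.

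The promoters of the members at an unadjusted p under 0.05 are shown here, since these members carry the differences described next. RefSeq promoters of build GRCr8 were matched by gene ID for 26 of the 32 members, and for 6 of these 7. Each line gives the 120 bases before the annotated start, 5′ to 3′ on the gene's strand, for the members that lay higher (Adh4, Adh7, Aldh1a2, Aldh1b1) and then lower (Aldh1a3, Akr1c19). Capitals mark a CCAAT box (CCAAT or ATTGG) or the core bound by the aryl hydrocarbon receptor (GCGTG or CACGC).
Adh4, chr2:229621972-229622091, plus strand: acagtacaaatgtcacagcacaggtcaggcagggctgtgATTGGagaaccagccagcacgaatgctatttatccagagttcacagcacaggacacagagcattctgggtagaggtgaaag
Adh7, chr2:229422005-229422124, plus strand: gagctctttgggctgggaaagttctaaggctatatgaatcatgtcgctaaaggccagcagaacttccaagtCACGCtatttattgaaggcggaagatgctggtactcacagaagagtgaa
Aldh1a2, chr8:80758521-80758640, plus strand: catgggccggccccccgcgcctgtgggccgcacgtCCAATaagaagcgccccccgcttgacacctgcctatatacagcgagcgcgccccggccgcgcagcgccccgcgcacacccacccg
Aldh1b1, chr5:64858880-64858999, plus strand: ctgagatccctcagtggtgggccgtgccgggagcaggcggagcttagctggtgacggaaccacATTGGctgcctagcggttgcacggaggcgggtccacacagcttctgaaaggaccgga
Aldh1a3, chr1:129427644-129427763, minus strand: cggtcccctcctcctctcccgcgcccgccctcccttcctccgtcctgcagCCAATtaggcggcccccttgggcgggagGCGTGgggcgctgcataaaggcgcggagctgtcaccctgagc
Akr1c19, chr17:70913796-70913915, plus strand: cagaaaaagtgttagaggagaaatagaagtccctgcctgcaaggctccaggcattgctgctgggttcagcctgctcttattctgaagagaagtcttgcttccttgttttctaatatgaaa

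Both strands of the 250 bases before the start were searched for 7 motifs. The CCAAT box was in 14 of the 26 matched members (53.8%, beside 34.3% of 27457 rat promoters), among them Adh4, Aldh1a2, Aldh1b1 and Aldh1a3. GCGTG was in 9 members (34.6%, beside 27.2%), among them Adh7, Aldh1a2 and Aldh1a3. The NRF2 core TGACNNNGC was in 3 (Akr1c15, Aldh16a1 and Aldh1a2; 11.5%, beside 10.2%), and the ATF4 core TGATGNAA in 1, Adh7, at bases 147 to 140 before the start (3.85%, beside 3.27%). TATAAA was in 3 (Adh4, Akr1c19 and Akr1c3; 11.5%, beside 13.1%). The repeats AGGTCANAGGTCA, bound by PPAR alpha and HNF4, and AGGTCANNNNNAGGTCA, bound by retinoic acid receptors, were in none, beside 0.0546% and 0.0109% of all promoters. A match is a run of letters, and none was tested as a binding site.

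Among alcohol dehydrogenases, the epithelial and class II enzymes lay higher in pups of high fat dams without overlap, and the groups overlapped in the main hepatic enzyme. Adh7, the class IV enzyme best known from stomach epithelium and active on retinol, was at 6.04, 6.26 and 7.09 in controls and at 8.75, 7.62 and 7.5 in high fat pups. The groups did not overlap, and high fat replicate 1 was the highest. The means were 6.46 ± 0.56 and 7.96 ± 0.69 (SD, n = 3 each), 2.82-fold higher (log2 change 1.5, SE 0.41, limma adjusted p = 0.223). Without high fat replicate 1, the array with high pancreas markers, the change was 1.10.

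Adh4, the class II enzyme, which oxidises larger alcohols and retinol, was at 7.69, 9.17 and 8.55 in controls. High fat pups were at 10.19, 9.30 and 9.98. The groups were separate only by a small step, since control replicate 2 nearly reached high fat replicate 2. Adh4 was 2.55-fold higher (log2 change 1.35, SE 0.40, adjusted p = 0.252), and the change ranged from 0.96 to 1.70 with 1 array left out.

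Adh1c, the class I enzyme that carries most hepatic ethanol oxidation, had nearly the same signal in all livers, 14.98 ± 0.088 in controls and 15.06 ± 0.038 (SD, n = 3 each). Its change was 0.079, with a 95% interval of -0.21 to 0.36. At such a bright level the probe set may be near the top of its range, which was not tested. A dimmer second probe set of the gene, with a mean of 12.35 in controls and 12.28 in high fat pups, differed by -0.062.
Adh5, the class III enzyme that clears formaldehyde bound to glutathione, had a log2 change of 0.038 (interval -0.39 to 0.47). Adh6a, below the brightness limit at a mean of 4.75, ranged from 2.89 to 6.22 with overlapping groups and was not tested.

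**Figure D2:**
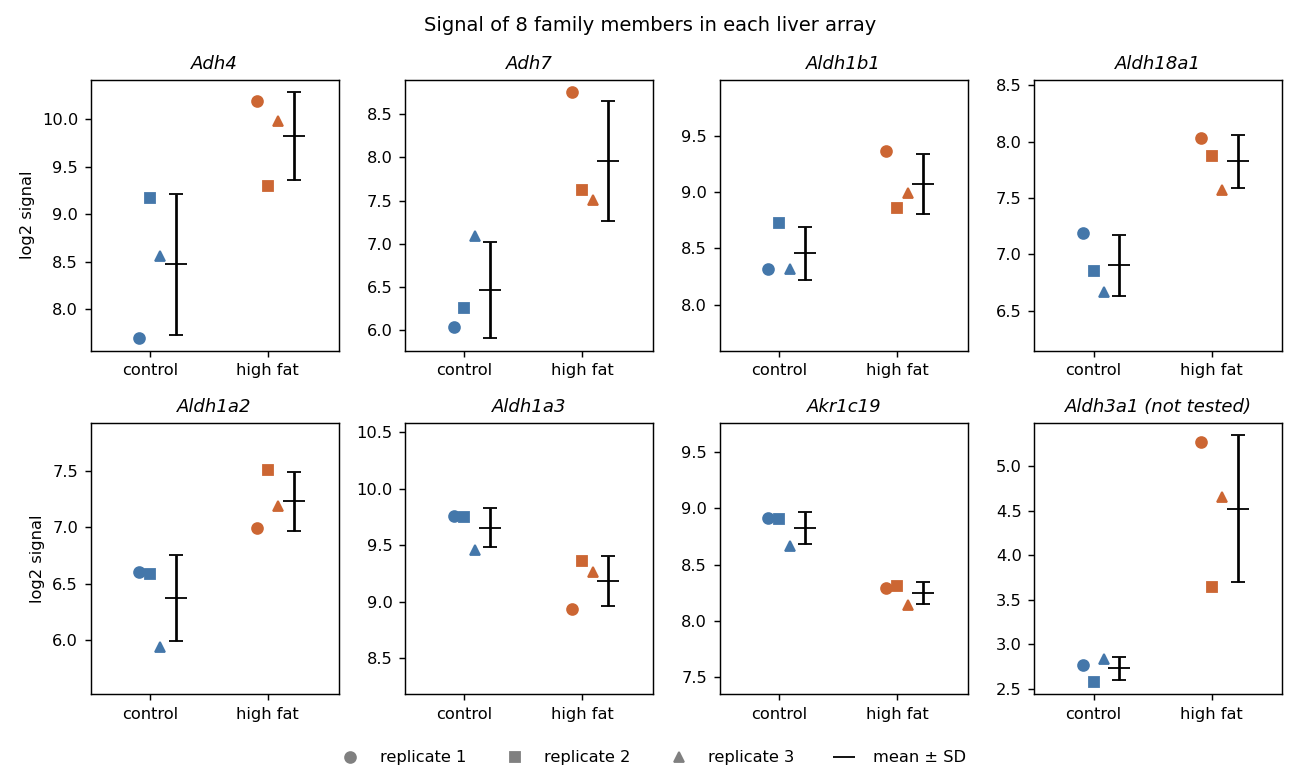
Log2 signal (y axis, with its own range in each panel) of 8 members in the 3 control and 3 high fat arrays; symbols give the replicate number, and bars the mean ± SD of 3 arrays. The panels are the 7 members at an unadjusted p under 0.05 (limma) and Aldh3a1, which was below the brightness limit and not tested. In each of these chosen panels the groups do not overlap, as in 40.7% of all tested members. Adh7 is at 6.04 to 7.09 in controls and 7.5 to 8.75 in high fat pups, and Akr1c19 at 8.66 to 8.91 and 8.14 to 8.31.

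Of the aldehyde dehydrogenases, 12 of 13 were tested, 8 with a higher and 4 with a lower mean. The smallest p belonged to Aldh18a1, the delta-1-pyrroline-5-carboxylate synthase that makes the precursor of proline and ornithine from glutamate. It was at 7.19, 6.85 and 6.66 in controls and at 8.03, 7.87 and 7.57 in high fat pups. The closest arrays of the groups stood well apart, by more than the SD of either group. Aldh18a1 was 1.90-fold higher (log2 change 0.92, SE 0.19, adjusted p = 0.185), and 0.80 to 1.07 with 1 array left out.

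The retinaldehyde dehydrogenases, which make retinoic acid, had differences of opposite sign. Aldh1a2 was at 6.60, 6.58 and 5.94 in controls and at 7.00, 7.51 and 7.19 in high fat pups. All 3 high fat arrays lay above the controls, and control replicate 3, the array with the most 3' excess, was the lowest. Aldh1a2 was 1.81-fold higher (log2 change 0.86, SE 0.23, adjusted p = 0.222), and 0.64 without control replicate 3.

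Aldh1a3 was at 9.76, 9.75 and 9.46 in controls. High fat pups were at 8.94, 9.36 and 9.26, all below the lowest control. Its level was 72.2% of control (log2 change -0.47, SE 0.17, adjusted p = 0.297). It was the only one of the 7 members to lose its unadjusted p under 0.05 when single arrays were left out, which happened without control replicate 1, control replicate 2 or high fat replicate 1 (-0.42, -0.42 and -0.35). Aldh1a2 is also known from mesenchymal cells, and the 10 stellate cell and fibroblast markers summed to 13.99 to 14.12 in controls and 13.97 to 14.25 in high fat pups. Of these markers 5 had an unadjusted p under 0.05 (50%, beside 14.1% of all genes). Lrat (0.70) and Col1a1 (0.44) were higher, and Dcn (-1.50), Pdgfrb (-0.48) and Acta2 (-0.49) lower. Aldh1a1, the third enzyme of this step and not a member here, was at 11.81, 13.30 and 11.86 in controls and 13.53, 13.23 and 13.64 in high fat pups.

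Of the mitochondrial enzymes that oxidise acetaldehyde, 1 had separate groups. Aldh1b1, which also accepts retinaldehyde, was at 8.32, 8.72 and 8.32 in controls and at 9.36, 8.86 and 8.99 in high fat pups. It lay higher in 3 of 3 arrays and was 1.53-fold higher (log2 change 0.61, SE 0.19, adjusted p = 0.269), with 0.47 when high fat replicate 1, its highest array, was left out. Aldh2, the main acetaldehyde dehydrogenase, was at 13.49 ± 0.043 in controls and 13.52 ± 0.081 in high fat pups (SD, n = 3 each). Its change of 0.029 had an interval of -0.25 to 0.31.

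Aldh3a2, the fatty aldehyde dehydrogenase of the endoplasmic reticulum, lay slightly higher without overlap. Controls were at 13.35, 13.65 and 13.35 and high fat pups at 13.73, 13.71 and 13.88, 1.25-fold higher (log2 change 0.32, SE 0.14, adjusted p = 0.373). Aldh3a1, its relative known as an inducible enzyme of lipid aldehydes, was below the brightness limit. It was at 2.77, 2.58 and 2.83 in controls and at 5.28, 3.64 and 4.65 in high fat pups, a difference of means of 1.80 among levels where folds are unreliable. With no brightness limit its adjusted p was 0.373 among 14217 genes (limma).

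Aldh3b1, a membrane-bound enzyme of lipid aldehydes, had a log2 change of -0.52 (SE 0.27, adjusted p = 0.436) with overlapping groups, and -0.29 without control replicate 2. Aldh16a1, an atypical member of the family, had non-overlapping groups, at 10.37 to 10.54 in controls and 9.93 to 10.27 in high fat pups (-0.33, SE 0.14, adjusted p = 0.371). Aldh1l2, the mitochondrial formyltetrahydrofolate dehydrogenase, was at 11.17, 11.66 and 10.001 in controls and 11.25, 11.54 and 11.89 in high fat pups. Its change of 0.61 (SE 0.42, adjusted p = 0.559) was 0.14 without control replicate 3 and 0.97 (unadjusted p = 0.045, adjusted p = 0.370) without control replicate 2.

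The groups overlapped in Aldh6a1, Aldh5a1 and Aldh9a1. Aldh6a1, of valine breakdown, had a log2 change of 0.11 (interval -0.21 to 0.42). Its second, dimmer probe set differed by 0.52, with overlapping groups. Aldh5a1, which removes succinic semialdehyde on the GABA route, had 0.039 (interval -0.31 to 0.38), and Aldh9a1, of carnitine synthesis, -0.084 (interval -0.46 to 0.30).

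Aldo-keto reductases held the smallest share of such members among the 3 families, 1 of 11 tested members at an unadjusted p under 0.05 (9.09%, beside 14.1% of all genes). That member, Akr1c19, of the hydroxysteroid dehydrogenase branch, was at 8.91, 8.90 and 8.66 in controls. High fat pups were at 8.30, 8.31 and 8.14. The groups stood clearly apart, and each varied little. Akr1c19 was at 66.9% of the control level (log2 change -0.58, SE 0.14, adjusted p = 0.191) and ranged from -0.66 to -0.53 with 1 array left out.

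The other 3 tested members of that branch had higher means in high fat pups, with overlapping groups. Akr1c14, the rat 3-alpha-hydroxysteroid dehydrogenase, was at 12.97 ± 0.22 in controls and 13.22 ± 0.060 in high fat pups (SD, n = 3 each; log2 change 0.25, adjusted p = 0.505). Its 3 probe sets gave 0.25, 0.28 and 0.29, all with overlapping groups, and the change was 0.14 without control replicate 1. Akr1c13 was at 0.25 and Akr1c15 at 0.50, neither separate. With 1 array left out, Akr1c13 ranged from 0.14 (without control replicate 3) to 0.44 (without control replicate 2) and Akr1c15 from 0.29 (without control replicate 3) to 0.67 (without high fat replicate 3). Akr1c genes are close copies of each other, so their probe sets may share signal, which was not tested. Akr1c3 and Akr1c1, both below the limit, had means of 5.79 and 4.47, differences of 0.59 and -0.93, and overlapping groups.

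In the aldose reductase branch, Akr1b7, first known from the vas deferens, was at 9.21, 8.24 and 8.21 in controls and 7.75, 7.69 and 8.18 in high fat pups. The groups touched closely, and control replicate 1 stood above all others. Its change of -0.68 (SE 0.30, adjusted p = 0.371) was -0.35 without control replicate 1. Akr1b8, a reductase of lipid aldehydes, was at 7.05 to 7.40 in controls and at 6.90, 8.45 and 7.76 in high fat pups. It was highest in high fat replicates 2 and 3, as was Akr1b1, given next. In the same 2 arrays the heat shock gene Hspa1a stood at 14.19 and 12.60, against 7.18 to 7.91 elsewhere. This match was not tested. The change of Akr1b8 was 0.53 (SE 0.37, adjusted p = 0.573). It was 0.16 without high fat replicate 2 and 0.93 (unadjusted p = 0.010, adjusted p = 0.268) without high fat replicate 1.

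Akr1b1, aldose reductase itself, the first enzyme of the polyol route, was at 8.04 to 8.48 in controls and at 8.13, 8.65 and 9.04 in high fat pups. Its change of 0.36 (SE 0.25, adjusted p = 0.573) was 0.14 without high fat replicate 3 and 0.60 (unadjusted p = 0.029, adjusted p = 0.346) without high fat replicate 1. A dimmer probe set of the gene went the other way, by -0.33. Akr1b10, below the limit, had a difference of -0.021 with overlapping groups.

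Akr7a3, the aflatoxin aldehyde reductase, had the largest change of the aldo-keto reductases that were tested. It was at 8.60, 10.55 and 9.65 in controls and at 10.77, 10.76 and 10.42 in high fat pups. Controls were widely scattered, and the highest of them lay above high fat replicate 3. The change of 1.05, 2.07-fold (SE 0.45, adjusted p = 0.365), was 0.55 without control replicate 1 and 1.52 without control replicate 2. Akr7a2, its relative that reduces succinic semialdehyde, had a change of 0.071 (interval -0.32 to 0.47).

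Akr1e2, which reduces 1,5-anhydrofructose, lay higher without overlap, at 10.55 to 10.96 in controls and 10.98 to 11.20 in high fat pups (0.33, SE 0.15, adjusted p = 0.40), and 0.22 without control replicate 1. Akr1a1, the general aldehyde reductase, was at 13.53, 13.37 and 13.42 in controls and 13.11, 13.40 and 13.18 in high fat pups. High fat replicate 2 lay among the controls, and the change was -0.21 (SE 0.14, adjusted p = 0.542).

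**Figure D3:**
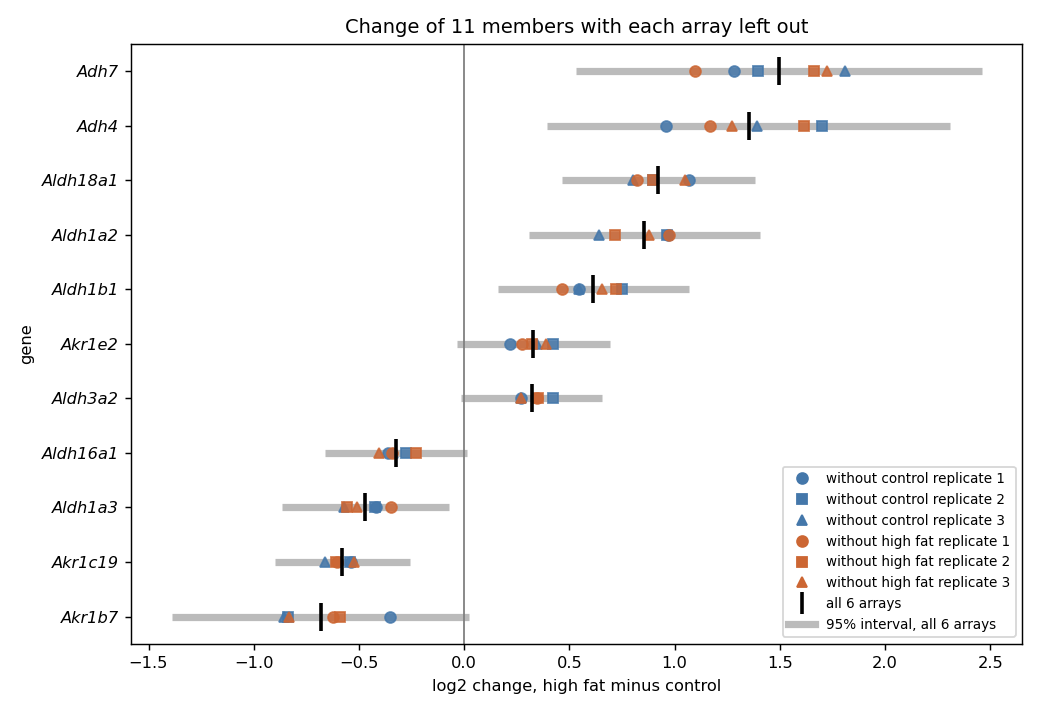
Log2 change, high fat minus control (x axis), of the 11 tested members whose groups do not overlap, over all 6 arrays (black tick, with its 95% interval in grey) and with each array left out (symbols). Every symbol keeps the side of 0 of its tick, which follows from choosing members whose groups do not overlap. Adh7 moves most, from 1.5 to 1.10 without high fat replicate 1. Akr1b7 goes from -0.68 to -0.35 without control replicate 1.

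Other enzymes of alcohols, aldehydes and ketones were counted from lists chosen with earlier results of these data known. Of 23 short-chain dehydrogenases and carbonyl reductases, 5 had an unadjusted p under 0.05 (21.7%, beside 14.1% of all genes). Of these 2 were higher and 3 lower, and the list's median was -0.011. Hsd17b6, active on androgens and retinol, was 3.04-fold lower (-1.60, SE 0.24, adjusted p = 0.129). Hsd17b2, which oxidises estradiol, was 2.24-fold higher (1.16, SE 0.25, adjusted p = 0.185), and Dhrs11 was at -1.11 (SE 0.26).
Of 14 further enzymes of ethanol and aldehydes, 3 reached that p (21.4%, beside 14.1% of all genes), with a list median of 0.097. They were xanthine dehydrogenase, Xdh, at -0.67, the glycolate oxidase Hao1 at 0.39 and Ptgr2 at -0.35.

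Retinoid genes outside the family held Retsat, the retinol saturase, which passed the adjusted test (1.67, SE 0.14, adjusted p = 0.0255). In all, 3 of 10 such genes had an unadjusted p under 0.05 (30%, beside 14.1% of all genes), all higher. The others were the retinol esterifying enzyme Lrat (0.70, SE 0.22) and Cyp26a1, which breaks down retinoic acid and is induced by it (0.69, SE 0.20). The median was 0.19.

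Lists of genes under 4 regulators known to act on family members were counted in the same way. Of 19 NRF2 targets, 9 had an unadjusted p under 0.05 (47.4%, beside 14.1% of all genes), 7 higher and 2 lower. The list's median was 0.40. Malic enzyme, Me1 (0.90), the glutathione synthesis gene Gclm (0.79) and the cystine carrier Slc7a11 (1.79) had the smallest p. Slc7a11 is also counted among the ATF4 targets below. Nqo1, a classical target of both NRF2 and the aryl hydrocarbon receptor, was lower, at -1.16 (SE 0.43). Of 6 targets or partners of the aryl hydrocarbon receptor, 2 reached that p (33.3%, beside 14.1% of all genes), both lower. They were Nqo1 and Cyp1a1 (-2.33, SE 0.74). The list's median was -0.16, and Cyp1a2 followed at -0.31.

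ATF4 answers amino acid shortage. Of 19 genes, Atf4 itself and its targets, 9 had an unadjusted p under 0.05 (47.4%, beside 14.1% of all genes), all higher. Atf4 itself was at -0.14, with overlapping groups. Psat1 passed the adjusted test (2.92, SE 0.25, adjusted p = 0.0255), Mthfd2 was at 1.31 and Phgdh at 3.14, and the median was 0.49. PPAR alpha senses fatty acids. Of 18 genes, Ppara itself and its targets, 10 reached that p (55.6%, beside 14.1% of all genes), all higher. The list's median was 0.65. Ppara itself was at 1.29, Pdk4 at 2.08 and Ehhadh at 1.52. The family's median of 0.25 thus lay below those of the NRF2, ATF4 and PPAR alpha lists and above those of the short-chain dehydrogenases and of all genes; these differences between lists were not tested.

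**Figure D4:**
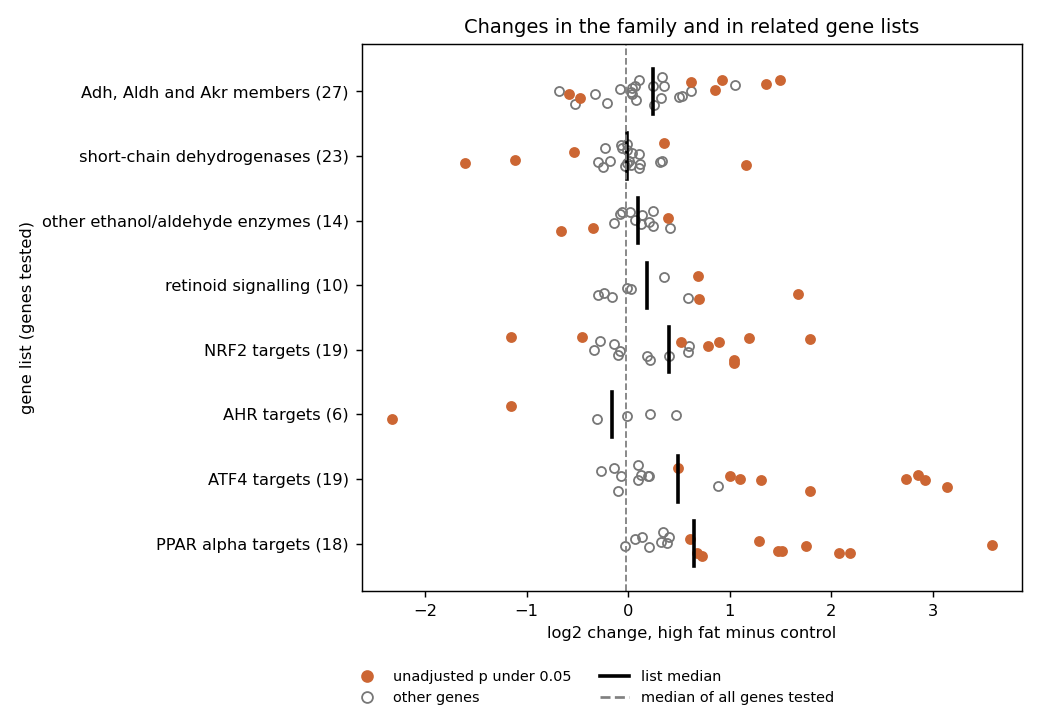
Log2 change, high fat minus control (x axis), of each tested gene in the 3 families and in 7 related lists (rows, with the number of genes); filled points have an unadjusted p under 0.05, bars are list medians and the dashed line is the median of all genes. The family members spread from -0.68 to 1.5 around a median of 0.25, and the PPAR alpha list has a median of 0.65.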

How the data were processed

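The deposited table held log2 values. Its scale was read from the data as base 2, since the 2% trimmed mean of the linear values was then equal in all arrays (500.2). The authors had thus scaled each array as a whole. Which software summarised the probes is not given here. Per the labels' protocols, RNA was extracted with TRIzol and labelled with a 3' IVT kit. The lowest values, 91 to 144 of 31099 per array, were 0. Quartiles differed by up to 0.22 between arrays, so arrays were quantile-normalized.

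Of 31042 probe sets other than the 57 controls, 20826 were paired with 1 gene, 436 with several (1 of them with family symbols, not used) and 9780 were unnamed here; a current gene table matched 20758 of the 20826. The test was limma's (version 3.58.1, R 4.3.3; lmFit, then eBayes; 2-sided), tested on simulated data. Figures used matplotlib 3.10.9 in Python 3.11.15. The number of arrays limits the precision.

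Values in each array were given for members at an unadjusted p under 0.05, for members separated by at least 1.5-fold, and for the 3 with the highest mean in each family; of each list the 3 genes with the smallest p. Further values were chosen after they were seen. The members and lists were chosen with earlier results of these data known. Alternatives covered normalization, filter, offset, probe sets, variance model, array weights, block, RNA wear and arrays left out.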

Additional observations from a re-analysis of the deposited data

How the results depend on the processing

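No member passed an adjusted p of 0.05 in limma under any of the 16 alternatives run; 7 had an unadjusted p under 0.05, and 6 to 11 with 1 array left out. The share of all genes at that p was 10.2% to 13.2% with 1 array left out. With a trended and robust variance there were 11 such members, beside 14.5% of all genes. The median change ranged from 0.14 to 0.35 with 1 array left out. Of the 27 members tested, 21 kept their direction in all 16. Among them were the 11 with separate groups, whose direction cannot turn when arrays are left out. Those that turned had changes near 0: Adh1c (-0.081 with values as deposited), Aldh9a1 (0.039 with the 3' covariate), and Adh5 (-0.26), Akr7a2 (-0.044), Aldh5a1 (-0.066) and Aldh2 (-0.019) without high fat replicates 1 and 3 together. With 1 array left out, Adh5 ranged from -0.11 to 0.19, Akr7a2 from -0.073 to 0.15, Aldh5a1 from -0.068 to 0.10, Aldh2 from -0.017 to 0.054 and Aldh9a1 from -0.18 to 0.026. The causes were not tested. Same-numbered pups did not deviate together (correlations of -0.13, -0.13 and -0.14), so numbers were not taken as pairs. With the replicate block 8 members had an unadjusted p under 0.05, beside 10.6% of all genes. Members near the brightness limit have the least certain folds.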
